A study of Homo sapiens with 136 samples.

Results

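Gene expression was compared between PANC-1 cells given an inhibitor of Vps34 and PANC-1 cells given hydroxychloroquine, with no other drug in either group. The comparison holds 12 of the 68 PANC-1 libraries, and a further 68 of the series are of a second line, AsPC-1. They were taken by title: 6 of the Vps34 inhibitor alone and 6 of hydroxychloroquine alone, with 3 of each on either of 2 plates, A and B. PANC-1 is a cell line established from human pancreatic ductal adenocarcinoma. Cells of this line were seeded in 96-well plates in DMEM with 10% fetal bovine serum, grown for 24 h and treated for 24 h, each drug at a dose that left 80% of cells viable in a 48 h test. The Vps34 inhibitor was Compound 19. RNA was measured by PLATE-Seq, which builds barcoded sequencing libraries from cells lysed in their wells. The other 56 PANC-1 libraries carried one of these drugs with 1 of 14 inhibitors of RAF, MEK or ERK kinases, and AsPC-1, also a pancreatic cancer line, was treated in the same layout. No untreated cells are among these libraries. A gene called higher is therefore higher with the Vps34 inhibitor than with hydroxychloroquine, and which of the drugs moved it cannot be told apart. Whether replicates came from separate cultures is not stated, so p-values measure the spread between these libraries, which may be technical.

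Vps34, encoded by PIK3C3, is the class III phosphoinositide 3-kinase. It makes phosphatidylinositol 3-phosphate, the lipid that recruits the proteins which build autophagosomes and sort cargo on endosomes, so its inhibition stops autophagy at an early step. Hydroxychloroquine is a weak base that collects in lysosomes, raises their pH and blocks the breakdown of cargo that autophagosomes deliver. Pancreatic ductal adenocarcinoma cells are known for a high use of both autophagy and lysosomal uptake as sources of nutrients.

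The 12 libraries held 2392004 to 4977643 counts each, and log2 values correlated at 0.932 to 0.965 between libraries of a group. No difference between the groups was detected in library totals or in the shares of counts in mitochondrial messenger RNA, ribosomal protein genes or the 10 largest genes (exact permutation test within plates, two-sided, adjusted p = 0.67 for each of 4 measures, the smallest possible p being 0.005). Mitochondrial messenger RNA made up 20.2% ± 1.51 of counts with the Vps34 inhibitor and 19.7% ± 1.22 with hydroxychloroquine (SD, n = 6 each). The 8 markers listed for this ductal line were all present, with a summed level of 2895 to 3812 and 3183 to 4173 CPM. Most of that sum was VIM, a mesenchymal gene, while KRT18 averaged 452 and 551 CPM, EPCAM 8.01 and 10.8 CPM, and CDH1 1.13 and 1.30 CPM, with 2 libraries at 0. Markers of cells that a pure line should not hold summed to at most 7.47 CPM for acinar cells, 0.867 for islets, 7.37 for immune cells and 2.35 for endothelium, with PRSS1, INS and PTPRC at 0 in all 12. Fibroblast markers summed to 36.4 to 66.2 and 53.3 to 66.9 CPM, nearly all of it COL1A1, with FAP and PDGFRB at 0. Levels are in CPM, counts divided by the library total after TMM scaling and expressed on a common scale.

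Of 12420 genes kept, 148 were higher with the Vps34 inhibitor (1.19% of those tested) and 137 were lower (1.10%), at an adjusted p under 0.05 by edgeR's quasi-likelihood test. The spread in this test is estimated from all 68 PANC-1 libraries; with the 12 libraries alone 79 genes were higher and 61 lower. Leaving out Vps34 inhibitor replicate 3 gave 102 and 87, and replicate 4 gave 107 and 89. The median log2 fold change over all these genes was 0.00. All 6 Vps34 inhibitor libraries lay above all 6 of hydroxychloroquine for 98 genes (0.789%) and below them for 112 (0.902%), and 67 and 60 of the called genes were among these. Targets of the stress factor ATF4 made up 25 of the higher genes (25 of 59 measured, none lower), and lipid synthesis genes 22 of the lower ones (22 of 57, none higher). The account that follows is of the other 123 higher and 115 lower genes, whose median log2 fold changes were 0.66 and −0.54. They are in neither list, which does not show that none of them is a target of ATF4. Of these 123 and 115 genes, 22 and 14 differed by at least 2-fold. Counts of called genes in the lists below are to be read against the shares over all genes, 1.19% higher and 1.10% lower. Within a single plate, with 3 libraries against 3, 13 genes were higher and 6 lower on plate A, and 10 and 5 on plate B.

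**Figure D1:**
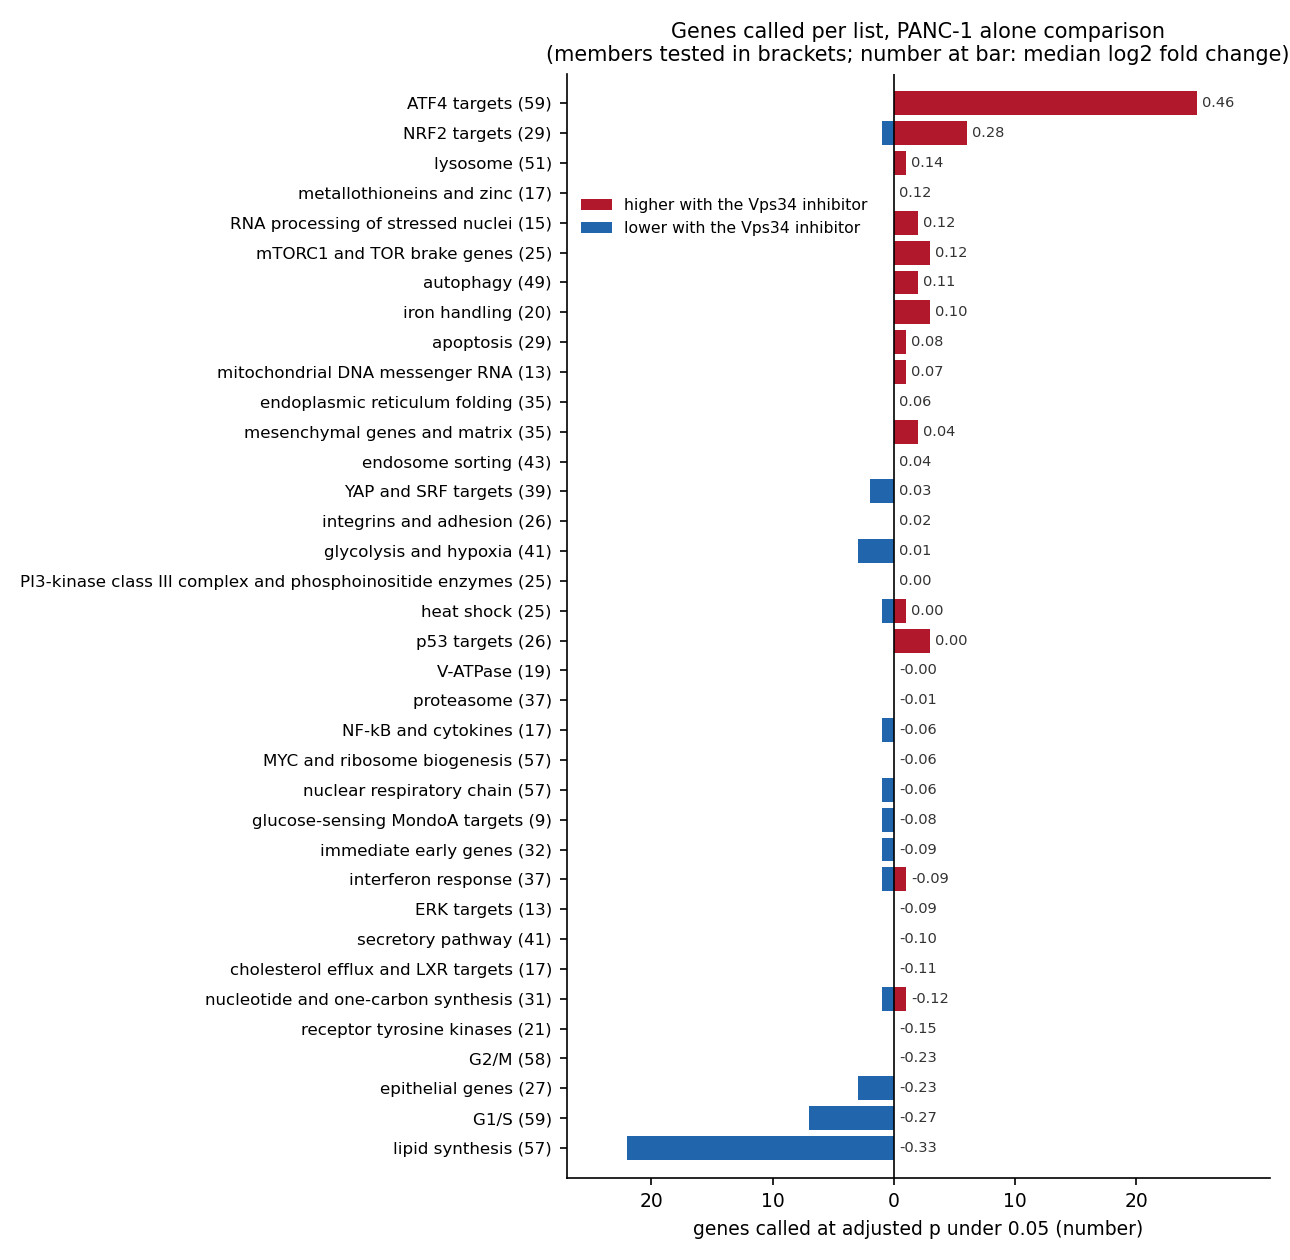
Bars give the number of genes called higher (red, to the right) or lower (blue, to the left) with the Vps34 inhibitor in each of 36 lists, with the number of members tested in brackets. The number at each bar is the list's median log2 fold change, which is 0.46 for ATF4 targets, 0.28 for NRF2 targets, −0.27 for G1/S genes and −0.33 for lipid synthesis; over all genes tested it is 0.00.

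The largest changes were taken from genes in neither the ATF4 nor the lipid list. They had at least 10 CPM and stayed called when any of the 12 libraries was left out. Of these genes HMOX1 (GRCh38, chromosome 22, 35380361 to 35394214) had the largest rise. It encodes the enzyme that degrades heme to biliverdin, carbon monoxide and free iron. Its level was 12.5, 12.7, 13.5, 15.7, 16.5 and 22.6 CPM in the libraries of hydroxychloroquine and 38.2, 43.4, 47.2, 55.2, 57.9 and 63.3 CPM in those of the Vps34 inhibitor. The lowest library of the Vps34 inhibitor thus lay above the highest of hydroxychloroquine, with a log2 fold change of 1.69 ± 0.22 (adjusted p = 1.22e-06). ULBP1, a surface ligand of the natural killer cell receptor NKG2D, stood at 2.46, 3.23, 3.87, 4.22, 6.24 and 7.88 CPM with hydroxychloroquine and at 10.3, 11.5, 11.9, 12.8, 15.3 and 17.3 CPM with the Vps34 inhibitor. The groups did not overlap, and the log2 fold change was 1.55 ± 0.21 (adjusted p = 2.94e-06). TMEM158 (chromosome 3, 45224466 to 45226278), a membrane protein known as a gene induced by oncogenic RAS, was measured at 66.6, 98.1, 100.3, 107, 110.0 and 124 CPM and at 213, 228, 238, 248, 248 and 277 CPM in the same order. The gap between the groups was wide here, from 124 to 213 CPM. The log2 fold change was 1.26 ± 0.14 (adjusted p = 1.16e-08).

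GPX1 (chromosome 3, 49357171 to 49358600), a selenoenzyme that reduces hydrogen peroxide with glutathione, was at 44.6, 54.8, 59.0, 66.5, 68.7 and 71.2 CPM with hydroxychloroquine and at 86.0, 106, 112, 149.8, 158 and 188 CPM with the Vps34 inhibitor. All libraries of the second group were higher, although they spread more widely (log2 fold change 1.14 ± 0.16, adjusted p = 7.42e-06). SMOX, which oxidises spermine to spermidine and releases hydrogen peroxide, had a lowest, median and highest level of 29.5, 31.7 and 42.7 CPM with hydroxychloroquine and of 57.9, 68.8 and 77.7 CPM with the Vps34 inhibitor (1.00 ± 0.16, adjusted p = 5.41e-05). These groups did not overlap either. A second selenoprotein, SELENOW, chosen after its values were seen, went from 24.6 ± 3.40 to 40.4 ± 5.50 CPM (SD, n = 6 each, 0.71 ± 0.14, adjusted p = 0.00121).

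The remaining large rises were in genes of more varied function. MRNIP, which binds the MRE11 complex of DNA break repair, ranged over 62.9 to 98.7 CPM with hydroxychloroquine and 117 to 192 CPM with the Vps34 inhibitor (0.95 ± 0.17, adjusted p = 3.33e-04). It lies on chromosome 5, 179835133 to 179862173, and overlaps SQSTM1 (179806398 to 179838078) on the opposite strand. Whether the counting used strand is not given, so reads from the overlap cannot be assigned to 1 of these genes with certainty. TLCD2, a membrane protein with a TLC domain, ranged over 10.3 to 21.8 and 20.9 to 49.7 CPM, overlapping by 1 library of each group (1.20 ± 0.21, adjusted p = 2.44e-04). PLEKHG5, a guanine nucleotide exchange factor that also acts in autophagy of synaptic vesicles, went from 6.06 ± 1.04 to 13.5 ± 1.83 CPM (1.15 ± 0.27, adjusted p = 0.0117). PAQR5, a membrane progesterone receptor, went from 4.81 ± 2.03 to 10.4 ± 2.09 CPM (1.08 ± 0.26, adjusted p = 0.013), and ABLIM3, an actin-binding LIM protein, from 8.29 ± 2.34 to 15.6 ± 2.68 CPM (0.88 ± 0.19, adjusted p = 0.00498). In these last 3 genes every Vps34 inhibitor library lay above every hydroxychloroquine library.

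**Figure D2:**
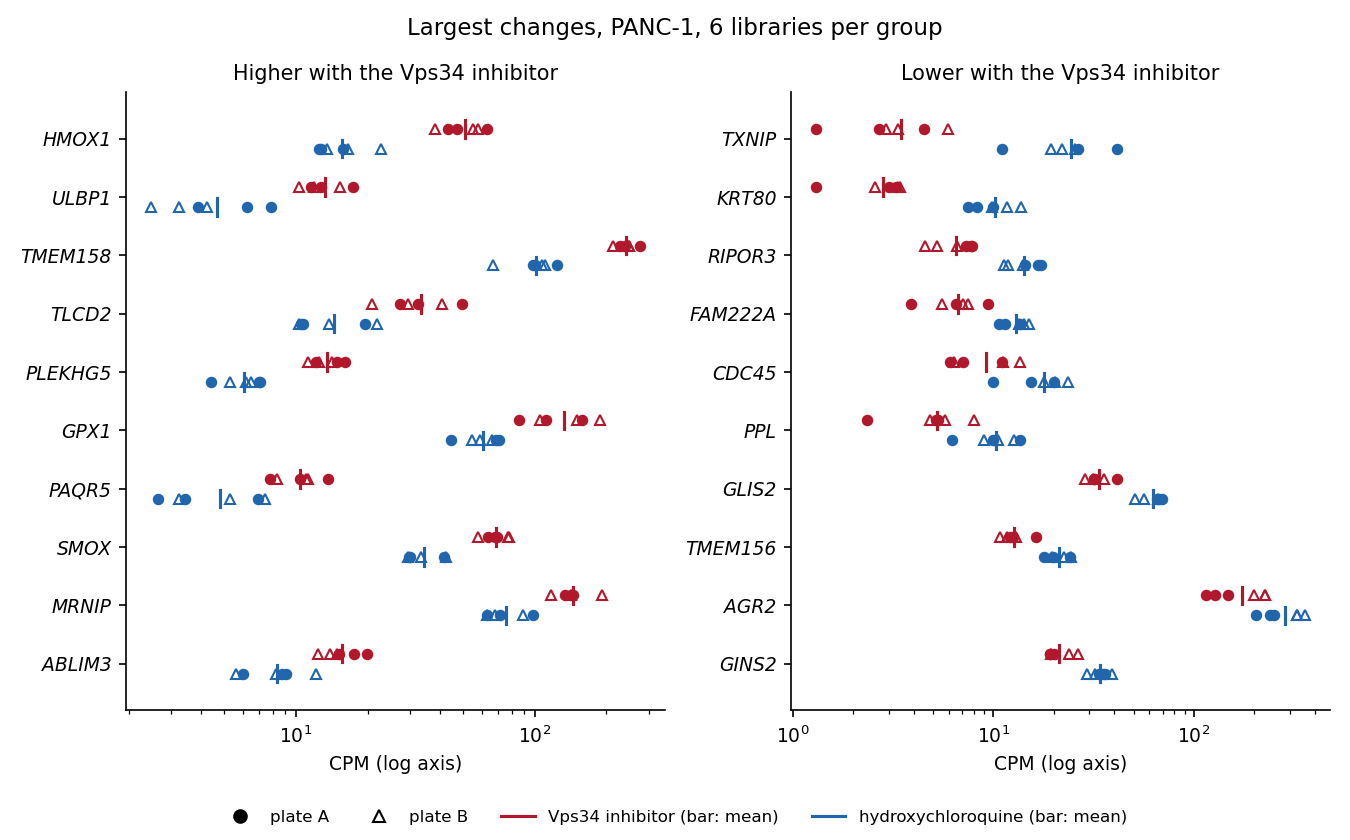
Each point is the level of a gene in 1 library, in CPM on a log axis. Shown are the 10 largest rises (left) and the 10 largest falls (right) outside the ATF4 and lipid lists. Filled circles are plate A, open triangles plate B, and vertical bars are group means. Red points (Vps34 inhibitor) and blue points (hydroxychloroquine) are apart for HMOX1, at 38.2 and above against 22.6 and below, while for TLCD2, CDC45, PPL and AGR2 their ranges overlap.

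By the same criteria TXNIP (chromosome 1, 145992435 to 145996600) showed the largest fall. It encodes an arrestin that binds thioredoxin and lowers glucose uptake, and it is transcribed by the sugar-sensing factors MondoA and ChREBP through a carbohydrate response element. Its level was 11.1, 19.3, 22.0, 25.4, 26.4 and 41.6 CPM with hydroxychloroquine and 1.30, 2.69, 2.92, 3.36, 4.51 and 5.96 CPM with the Vps34 inhibitor, so that the highest library of the second group was below the lowest of the first. The log2 fold change was −2.74 ± 0.41 (adjusted p = 2.63e-05), and it was −3.07 ± 0.58 on plate A and −2.40 ± 0.29 on plate B. It was the only called member of 9 measured targets of these factors, whose median was −0.08. The 250 bases before the start of TXNIP are shown because they hold the element; capitals mark the match to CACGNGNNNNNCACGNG, searched on both strands, which lies 88 to 72 bases before the start. Of 35116 such windows in RefSeq's human promoters (GRCh38.p14), 16 hold this motif, or 0.0456%.
TXNIP promoter, chr1:145996580-145996829, minus strand: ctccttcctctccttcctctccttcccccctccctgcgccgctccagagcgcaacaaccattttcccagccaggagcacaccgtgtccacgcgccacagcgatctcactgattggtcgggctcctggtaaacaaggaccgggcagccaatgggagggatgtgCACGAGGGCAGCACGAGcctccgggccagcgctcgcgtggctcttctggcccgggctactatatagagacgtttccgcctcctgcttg
The match describes the letters only, and binding was not measured.

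KRT80 (chromosome 12, 52168996 to 52192000), an epithelial keratin, was at 7.44, 8.32, 9.84, 10.0, 11.7 and 13.8 CPM with hydroxychloroquine and at 1.30, 2.58, 3.03, 3.26, 3.36 and 3.41 CPM with the Vps34 inhibitor. Its groups were well apart, with a log2 fold change of −1.83 ± 0.26 (adjusted p = 4.84e-06). RIPOR3, a member of the RIPOR family, ranged over 11.3 to 17.3 CPM and 4.57 to 7.80 CPM (−1.13 ± 0.22, adjusted p = 0.00104). GLIS2, a Krüppel-like zinc finger repressor, ranged over 50.9 to 69.4 CPM and 28.8 to 41.6 CPM (−0.90 ± 0.15, adjusted p = 7.01e-05). FAM222A went from 13.0 ± 1.68 to 6.66 ± 1.86 CPM (−0.97 ± 0.23, adjusted p = 0.0104), and TMEM156, a membrane protein, from 21.3 ± 2.67 to 12.7 ± 1.89 CPM (−0.73 ± 0.17, adjusted p = 0.00862). For these genes no library of the Vps34 inhibitor reached the lowest of hydroxychloroquine. Periplakin (PPL), a desmosomal linker of keratin filaments, went from 10.3 ± 2.63 to 5.25 ± 1.82 CPM with overlapping groups (−0.94 ± 0.20, adjusted p = 0.00385). TKTL1, a transketolase-like protein that falls under 10 CPM and was chosen after its values were seen, had 59 counts over the 6 libraries of hydroxychloroquine and 1 count over the 6 of the Vps34 inhibitor.

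Genes of antioxidant defence and iron storage that passed were higher, with 1 exception. Of 29 measured targets of NRF2, the transcription factor that answers oxidative and electrophilic stress, 6 were higher and 1 was lower, with a median log2 fold change of 0.28. Over all genes 1.19% were higher and 1.10% lower. Of 20 measured iron handling genes 3 were higher and none lower, and all 3, HMOX1, FTH1 and FTL, are also NRF2 targets. FTH1, the ferritin heavy chain that oxidises iron for storage, had a lowest, median and highest level of 611, 802 and 820.3 CPM with hydroxychloroquine and of 883, 970.4 and 1249 CPM with the Vps34 inhibitor. Its groups did not overlap (0.41 ± 0.08, adjusted p = 0.00261). FTL, the ferritin light chain, had 285, 392 and 477 CPM and 434, 556 and 747 CPM, where 2 libraries of the first group reached into the second (0.53 ± 0.13, adjusted p = 0.0126). Both ferritin genes have many processed copies, so the assignment of their reads is less certain.

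NQO1, a quinone reductase, was measured at 156, 161, 168, 172, 173 and 203 CPM with hydroxychloroquine and at 209, 217, 218, 239, 254 and 269 CPM with the Vps34 inhibitor. The ranges just missed each other, with replicate 4 of hydroxychloroquine, on plate B, at 203 and the lowest Vps34 inhibitor library at 209 (0.45 ± 0.08, adjusted p = 2.68e-04). OSGIN1, an oxidative stress growth inhibitor, went from 3.97 ± 0.962 to 8.69 ± 2.08 CPM (1.15 ± 0.30, adjusted p = 0.0229), and SLC48A1, which exports heme from endosomes and lysosomes to the cytosol, from 76.9 ± 11.7 to 97.2 ± 12.01 CPM (0.34 ± 0.09, adjusted p = 0.0312). The lower member was ABCC3, an exporter of glucuronide conjugates, at 49.0 ± 3.49 and 30.9 ± 3.83 CPM (−0.67 ± 0.15, adjusted p = 0.00518). Thioredoxin reductase 1 (TXNRD1), a standard NRF2 target, did not pass at 0.48 ± 0.16 (adjusted p = 0.0882), nor did the transferrin receptor TFRC, which takes up iron, at −0.20 ± 0.16 (adjusted p = 0.654). OSGIN1, SLC48A1, ABCC3, TXNRD1 and TFRC were named after their values were seen. Of the called ones, OSGIN1 lost its call in 3 and SLC48A1 in 6 of the 12 refits that each leave out 1 library (adjusted p up to 0.0671 and 0.0951).

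DNA replication genes that passed were lower. Of 59 measured G1/S genes, which make the replication fork and its nucleotides, 7 were lower and none higher. Over all genes 1.10% were lower and 1.19% higher. The list's median log2 fold change was −0.27 with 53 of 59 below 0. CDC45, a subunit of the replicative helicase, was at 9.94, 15.3, 17.9, 20.02, 20.3 and 23.7 CPM with hydroxychloroquine and at 6.07, 6.33, 7.02, 11.1, 11.2 and 13.5 CPM with the Vps34 inhibitor. The lowest library of hydroxychloroquine lay below 3 of the Vps34 inhibitor, and the other 5 lay above all of them (−0.95 ± 0.20, adjusted p = 0.00416). GINS2, a subunit of the same helicase, was at 29.2, 32.0, 33.7, 35.0, 35.9 and 39.0 CPM and at 19.1, 19.2, 19.5, 20.1, 23.9 and 26.5 CPM, with no overlap (−0.68 ± 0.15, adjusted p = 0.00652). PCNA (chromosome 20, 5114953 to 5126626), the sliding clamp of DNA polymerases, was at 116, 122, 129, 174, 178 and 181 CPM and at 77.6, 87.5, 92.3, 117, 118 and 125 CPM. The levels of PCNA differed by plate in both groups: plate A ran from 77.6 to 129 CPM and plate B from 117 to 181, and within each plate the Vps34 inhibitor libraries were the lower ones (−0.54 ± 0.10, adjusted p = 6.48e-04; plate A −0.51 ± 0.14, plate B −0.57 ± 0.13).

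Further called members of the list, named after their values were seen, were thymidine kinase (TK1, −0.53 ± 0.13, adjusted p = 0.0192), the histone mRNA binder SLBP (−0.55 ± 0.16, adjusted p = 0.0477) and the helicase subunit MCM3 (−0.39 ± 0.10, adjusted p = 0.023), which lost their calls in 2, 10 and 2 of the 12 refits. Outside the list, PCLAF, a PCNA-binding factor, ranged over 121 to 174 CPM with hydroxychloroquine and 86.5 to 119.5 CPM with the Vps34 inhibitor (−0.60 ± 0.09, adjusted p = 2.99e-05). UBE2T, the ubiquitin-conjugating enzyme of the Fanconi pathway, ranged over 165 to 215 CPM and 130.1 to 157 CPM (−0.41 ± 0.11, adjusted p = 0.0265). Neither gene's groups overlapped, although the call of UBE2T was lost in 5 of the 12 refits (adjusted p up to 0.0714). None of 58 G2/M genes passed by edgeR's test (24 at an unadjusted p under 0.05, and 4 lower by DESeq2); 49 lay below 0 and their median was −0.23. In the libraries with a kinase inhibitor, 29 of the G1/S genes were lower and none higher, and 31 of the G2/M genes were lower and 2 higher, against 11.2% lower and 9.94% higher over all genes there.

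The promoters of PCNA and GINS2 are shown because both genes were lower and both hold the motif TTTCCCGC, a common form of the E2F site, searched on both strands in the 250 bases before the start. Capitals mark it; in both it reads on the opposite strand, 59 to 52 bases before the start of PCNA and 31 to 24 before that of GINS2.
PCNA promoter, chr20:5126623-5126872, minus strand: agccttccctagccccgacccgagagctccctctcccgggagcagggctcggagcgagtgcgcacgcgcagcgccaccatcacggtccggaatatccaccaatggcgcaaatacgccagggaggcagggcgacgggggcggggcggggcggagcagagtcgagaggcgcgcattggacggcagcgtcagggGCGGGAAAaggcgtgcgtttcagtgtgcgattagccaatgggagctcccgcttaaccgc
GINS2 promoter, chr16:85688955-85689204, minus strand: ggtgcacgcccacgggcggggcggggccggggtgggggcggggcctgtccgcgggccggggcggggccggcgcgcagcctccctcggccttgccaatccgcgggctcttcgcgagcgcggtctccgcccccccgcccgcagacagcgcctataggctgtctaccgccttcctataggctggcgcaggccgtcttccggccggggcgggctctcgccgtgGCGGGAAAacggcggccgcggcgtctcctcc
The motif occurs in 488 of 35116 windows, or 1.39%. Among called genes it was also found for PCLAF, MCM3, NCAPD3, DRAP1, PTBP1 and SERTAD4, each of them lower. A match is not evidence of binding. Of the 12420 genes, 9819 had a promoter among these sequences. The share holding the motif was not computed for them or for the called genes. The genes listed therefore do not show that the motif is more frequent among lower genes.

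The genes of the drug's target showed no called difference between the drugs alone. Of 25 measured genes of the class III kinase complex and of phosphoinositide enzymes none passed by edgeR or DESeq2 (4 at an unadjusted p under 0.05), and the median was 0.00; these are RNA levels and say nothing of the kinase's activity. PIK3C3 was at 11.95 to 19.6 CPM with hydroxychloroquine and at 11.9 to 21.1 CPM with the Vps34 inhibitor (−0.01 ± 0.17, adjusted p = 0.992). PIK3R4, the regulatory subunit, differed by 0.29 ± 0.30 (adjusted p = 0.742), ATG14, which directs the complex to autophagosomes, by 0.28 ± 0.26 (adjusted p = 0.705), and UVRAG, which directs it to endosomes, by −0.51 ± 0.22 (adjusted p = 0.248). BECN1, the beclin 1 scaffold, gave −1.66 ± 0.71 (adjusted p = 0.251), a value set by hydroxychloroquine replicate 4 at 146 CPM, while the other 11 libraries lay between 1.76 and 10.1 CPM. Without that library the estimate was 0.23. In the libraries with a kinase inhibitor PIK3C3 was called lower, at −0.24 ± 0.08 (adjusted p = 0.0259 by edgeR's test). It was lower there in 23 of 28 pairs of libraries that shared the kinase inhibitor and the plate. Of the 25 genes 2 were higher and 1 was lower there, against 9.94% and 11.2% over all genes.

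Among genes of the organelles that these drugs act on, 2 of 49 autophagy genes were higher, with a list median of 0.11, against 1.19% higher over all genes. SQSTM1, the p62 receptor that carries ubiquitinated cargo and is also an NRF2 target, was at 143, 194, 202, 208, 209.7 and 234 CPM with hydroxychloroquine and at 225, 243, 245, 276, 288 and 292 CPM with the Vps34 inhibitor. The highest library of the first group lay within the second (0.40 ± 0.10, adjusted p = 0.0199). WDR45, a PI3P-binding protein of the growing autophagosome, went from 9.26 ± 3.84 to 15.1 ± 3.86 CPM (0.71 ± 0.20, adjusted p = 0.0403). The call of SQSTM1 was lost without hydroxychloroquine replicate 2 (adjusted p = 0.0768) and that of WDR45 in 9 of the 12 refits (up to 0.11). Of 51 lysosomal genes 1 was higher, near the share of 1.19% over all genes, with a list median of 0.14. It was CTSL, the protease cathepsin L, at 42.2, 47.8, 48.0, 49.98, 54.7 and 55.0 CPM and 67.2, 67.9, 71.4, 73.2, 78.0 and 78.5 CPM, with the groups apart (0.55 ± 0.13, adjusted p = 0.0106).

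No member passed among 19 V-ATPase subunits, which acidify the lysosome, or among 43 genes of endosome sorting, by edgeR's test (1 and 2 at an unadjusted p under 0.05; 0 and 1 by DESeq2). Outside the lists, and chosen after their values were seen, PLD3, a lysosomal exonuclease, went from 15.6 ± 2.34 to 25.3 ± 4.24 CPM (0.71 ± 0.16, adjusted p = 0.00558), and LAMP3, a lysosomal membrane protein of low level here, from 1.56 ± 1.09 to 5.16 ± 1.55 CPM (1.65 ± 0.36, adjusted p = 0.00549). CASTOR1, the arginine sensor that restrains the growth kinase mTORC1, was higher at 41.1, 54.1 and 60.5 CPM (lowest, median and highest) against 26.7, 31.5 and 42.1 CPM (0.67 ± 0.15, adjusted p = 0.00812). It was 1 of 3 higher genes among 25 of mTORC1 and its brakes. The other 2, SESN2 and EIF4EBP1, are also ATF4 targets. In the libraries with a kinase inhibitor 10 of 43 endosome sorting genes were higher and 3 lower, and 3 and 1 of 19 V-ATPase subunits. There 12 of 51 lysosomal genes were higher and 3 lower, and 12 and 2 of 49 autophagy genes. Over all genes there 9.94% were higher and 11.2% lower.

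Of 27 genes of epithelial identity 3 were lower and none higher, against 1.10% and 1.19% over all genes. The list median was −0.23, with 17 genes below 0 and 10 above it. Besides KRT80 the lower genes called were AGR2 and KRT18. AGR2, a disulfide isomerase of secretory epithelium, was at 205, 239, 251, 326, 328 and 359 CPM with hydroxychloroquine and at 115, 127, 148, 199.7, 226 and 227 CPM with the Vps34 inhibitor. Plate B ran higher for both drugs, so that the pooled ranges overlapped while the groups were apart on each plate (−0.73 ± 0.10, adjusted p = 1.80e-06; plate A −0.82 ± 0.15, plate B −0.64 ± 0.12). KRT18, a keratin of simple epithelium with many processed copies, ranged over 517 to 578 CPM and 412 to 478 CPM (−0.29 ± 0.07, adjusted p = 0.0174). It was the 1 called gene of 8 ductal markers, and its call was lost without hydroxychloroquine replicate 6 (adjusted p = 0.054). Of these 8 markers 5 lay below 0 and 3 above it, the latter including KRT7 (0.23 ± 0.19) and KRT19 (0.12 ± 0.14).

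Of 39 targets of YAP and SRF 2 were lower, against 1.10% over all genes, with a list median of 0.03. They were the transcription factor SRF itself (31.5 ± 6.21 to 20.8 ± 2.24 CPM, −0.60 ± 0.13, adjusted p = 0.00553) and AJUBA, a LIM protein of adherens junctions (15.3 ± 4.17 to 8.63 ± 1.68 CPM, −0.83 ± 0.20, adjusted p = 0.0129). The call of AJUBA was lost without hydroxychloroquine replicate 3 (adjusted p = 0.0567). SRF was also the 1 lower gene of 32 immediate early genes. CAV1, the main coat protein of caveolae, lay in no list and was chosen after its values were seen. It was at 431, 435, 459.8, 471, 543 and 572 CPM with hydroxychloroquine and at 265, 283, 321, 323, 330.2 and 333 CPM with the Vps34 inhibitor, well apart (−0.65 ± 0.10, adjusted p = 3.25e-05), and its partner CAV2 differed by −0.35 ± 0.10 (adjusted p = 0.0477, lost in 9 of the 12 refits). In the libraries with a kinase inhibitor 16 of the 39 YAP and SRF targets were lower and 1 was higher. Over all genes there 11.2% were lower and 9.94% higher. The list median there was −0.16.

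A pair of mitochondrial transcripts moved in opposite directions. RNR1, a ribosomal RNA encoded by mitochondrial DNA (12S), was at 5379 to 6768 CPM with hydroxychloroquine and at 3599.7 to 5195 CPM with the Vps34 inhibitor, without overlap (−0.45 ± 0.10, adjusted p = 0.00835). ND6, a subunit of respiratory complex I encoded on the other strand of mitochondrial DNA from most of its genes, was at 11829 to 13753 CPM and 12598 to 18559.9 CPM (0.35 ± 0.08, adjusted p = 0.00863). It was the 1 called member of 13 messenger RNAs of mitochondrial DNA; whether the counting used strand is not given in the sources used here, so reads of ND6 and of RNA from the strand opposite it cannot be told apart. Of 57 nuclear genes of the respiratory chain 1 was lower, near the share of 1.10% over all genes. It was COX5A of complex IV (323 ± 45.3 to 263 ± 27.8 CPM, −0.30 ± 0.08, adjusted p = 0.0266, lost in 6 of the 12 refits, up to 0.123).

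Of 41 genes of glycolysis and hypoxia 3 were lower, among them adrenomedullin (ADM), a hypoxia-induced peptide hormone (45.3 ± 5.61 to 29.3 ± 6.43 CPM, −0.63 ± 0.14, adjusted p = 0.0073), and the glycolytic enzyme TPI1 (−0.25 ± 0.07, adjusted p = 0.0403, lost in 8 of the 12 refits, up to 0.131). The list median was 0.01. Of 17 genes of NF-kB and cytokines 1 was lower, CSF1, the growth factor of macrophages (44.2 ± 5.88 to 30.1 ± 4.89 CPM, −0.55 ± 0.13, adjusted p = 0.0101). UPP1, which splits uridine to ribose 1-phosphate and uracil, was the 1 higher gene of 31 of nucleotide and one-carbon synthesis (0.43 ± 0.10, adjusted p = 0.0126). It was at 45.7 to 55.6 CPM with hydroxychloroquine and at 62.1 to 80.0 CPM with the Vps34 inhibitor. BCL2L1, the survival protein BCL-XL, was the 1 called gene of 29 of apoptosis (10.9 ± 1.49 to 21.2 ± 5.75 CPM, 0.95 ± 0.23, adjusted p = 0.016). UPP1 lost its call without Vps34 inhibitor replicate 3 (adjusted p = 0.0503) and BCL2L1 without replicate 5 (0.0595).

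Of 26 p53 targets 3 were higher, against 1.19% over all genes. The 1 outside the ATF4 list was ferredoxin reductase FDXR (0.91 ± 0.25, adjusted p = 0.0365). In the interferon list of 37, IFI35 was higher (0.90 ± 0.23, adjusted p = 0.0245) and B2M, the light chain of MHC class I, was lower (−0.35 ± 0.09, adjusted p = 0.0301). Of 15 RNA processing genes 2 were higher, SMG1, the kinase of nonsense-mediated decay (0.45 ± 0.11, adjusted p = 0.0151), and the nuclear RNA NEAT1 (0.52 ± 0.14, adjusted p = 0.0312). Among 25 heat shock genes HSPA1A, whose copy HSPA1B is nearly identical, was higher (0.53 ± 0.15, adjusted p = 0.0345). It was at 48.5 to 55.6 CPM with hydroxychloroquine and at 62.5 to 121 CPM with the Vps34 inhibitor. These 6 calls were lost in 7, 4, 7, 0, 8 and 8 of the 12 refits, in the order given, with adjusted p up to 0.191. No gene passed by edgeR's test in the lists of folding in the endoplasmic reticulum (35 measured), ribosome biogenesis under MYC (57), ERK targets (13), integrins (26), LXR targets (17), receptor tyrosine kinases (21), the proteasome (37), metallothioneins and zinc (17) or the secretory pathway (41). At an unadjusted p under 0.05 these 9 lists had 6, 8, 1, 3, 1, 3, 5, 3 and 12 genes, and DESeq2 called 1, 0, 0, 1, 0, 1, 2, 1 and 0 of them. In the libraries with a kinase inhibitor the 9 lists had 5, 3, 2, 7, 1, 0, 4, 2 and 1 genes higher. They had 4, 9, 2, 1, 3, 6, 3, 1 and 14 lower, against 9.94% higher and 11.2% lower over all genes there.

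Some called genes rested on 1 library. In 7 of the 285, over 50% of the summed CPM of the 12 libraries came from a single one: CBS, PPP3CA, ZNFX1 and ASB8 among the higher genes, and HSPA4, PIGT and ZBTB8A among the lower. HSPA4, a chaperone named by the rule for the heat shock list, was at 5111 CPM in hydroxychloroquine replicate 3 and at 1354 in replicate 5, against 229.7 to 442 in the other 10. Its estimate of −2.09 ± 0.50 (adjusted p = 0.0161) became −0.66 without replicate 3 (adjusted p = 0.399). ZNFX1 was at 1098 CPM in Vps34 inhibitor replicate 4, with 35.1 to 127 elsewhere, and ZBTB8A at 658 CPM in hydroxychloroquine replicate 5, with 14.8 to 32.9 elsewhere. None of the 7 kept its call in every one of the 12 refits that leave out a library. Over all 285 genes, 119 did (62 higher, 57 lower).

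The same contrast was available in libraries that do not enter the alone estimates, although they share the fit and its estimate of the spread. With 14 kinase inhibitors as partners, 28 Vps34 inhibitor libraries were set against 28 of hydroxychloroquine, on the same plates and in the same fit. Here 1234 genes were higher (9.94%) and 1389 lower (11.2%). Of the 148 genes higher alone, 125 were higher under a kinase inhibitor too, which is 84.5% of the first set and 10.1% of the second. Of the 137 lower alone, 117 were lower there, 85.4% and 8.42%. None was called in the opposite direction, and 142 of the 148 and 134 of the 137 had the same sign; TKTL1 had no usable estimate there. The genes in neither the ATF4 nor the lipid list had smaller median differences here, at 0.41 and −0.30. They were chosen by their calls in the alone libraries, which favours large values there. The smaller medians therefore do not show a weaker contrast under a kinase inhibitor.

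TXNIP differed by −2.56 ± 0.20 under a kinase inhibitor and was lower in 28 of 28 pairs of libraries that shared the kinase inhibitor and the plate. HMOX1 differed by 1.42 ± 0.10 and was higher in 28 of 28 pairs, and so was GPX1 (0.94 ± 0.08), NQO1 (0.58 ± 0.04), FTH1 (0.53 ± 0.04), FTL (0.77 ± 0.06), SMOX (1.31 ± 0.08) and MRNIP (1.22 ± 0.08). KRT80 (−1.29 ± 0.11), PCLAF (−0.49 ± 0.04) and PPL (−0.81 ± 0.09) were lower in 28 of 28. CAV1 (−0.67 ± 0.05), PCNA (−0.47 ± 0.05) and AGR2 (−0.69 ± 0.05) were lower in 27. Some genes called alone had no call there: NEAT1 at 0.04 ± 0.06 (adjusted p = 0.751), BCL2L1 at 0.19 ± 0.11 (adjusted p = 0.253), PAQR5 at 0.23 ± 0.13 (adjusted p = 0.233), B2M at −0.04 ± 0.04 (adjusted p = 0.579) and COX5A at −0.08 ± 0.04 (adjusted p = 0.113). The difference between the alone contrast and this one was itself tested, and no gene passed by edgeR's test (735 genes, 5.92%, at an unadjusted p under 0.05, smallest adjusted p = 0.196). A difference between the settings is thus not shown for any of these genes.

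**Figure D3:**
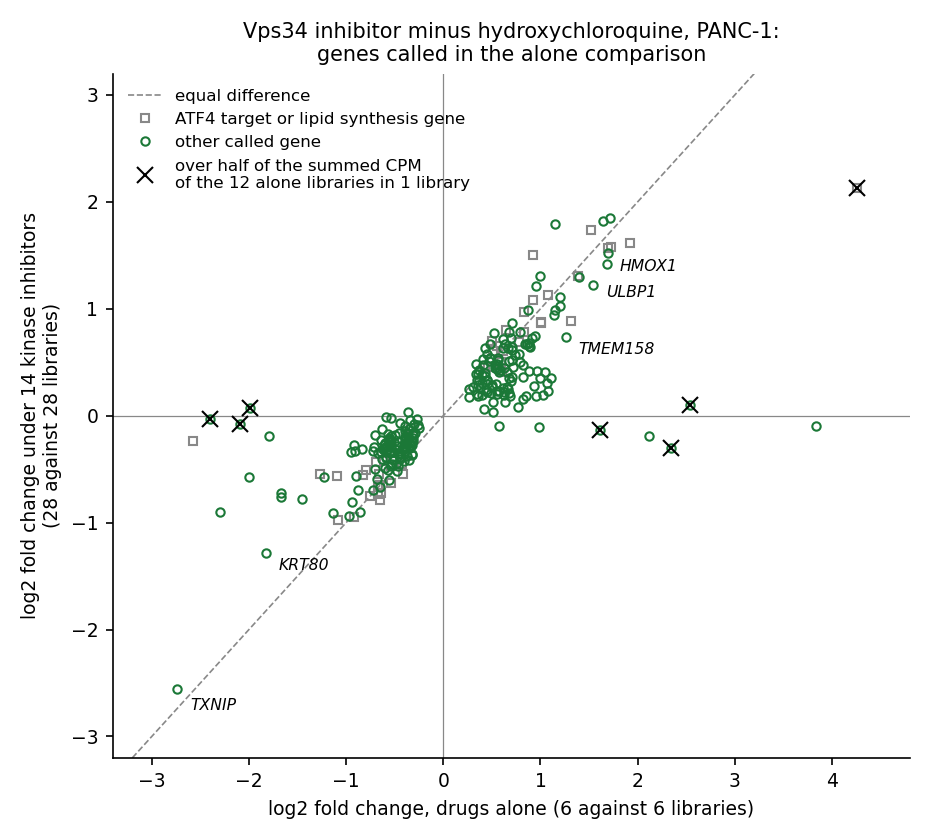
Each point is 1 of 284 genes called in the alone comparison, with the log2 fold change alone on the x axis (6 against 6 libraries) and that under 14 kinase inhibitors on the y axis (28 against 28); TKTL1, which has no usable estimate on the y axis, is not drawn. Most points lie on the same side of 0 on both axes, TXNIP at −2.74 and −2.56, while 6 of the 7 crossed genes, which have over 50% of their alone CPM in 1 library, lie close to 0 on the y axis.

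The contrast was also tested for a difference between PANC-1 and AsPC-1, given the same drugs alone in 6 libraries each. It differed for 315 of 11956 genes (2.63%): 145 were more positive in PANC-1 and 170 more negative. The lines shared no plate, and the named genes were chosen by the PANC-1 libraries or by this same test. CDCP1, MKNK2, RNR1, LXN, PCLAF and UBE2T were named only for a small adjusted p in it, and TMEM158, UPP1 and PCNA partly for that. The following are therefore values for single genes and not a count. TMEM158, higher in PANC-1, was at −1.36 ± 0.22 in AsPC-1, a difference of 2.62 ± 0.30 (adjusted p = 8.27e-10). GPX1 was at 0.06 ± 0.14 in AsPC-1, a difference of 1.07 ± 0.20 (adjusted p = 2.66e-04). CDCP1, a surface substrate of SRC kinases, was at 79.0 to 115 CPM with hydroxychloroquine and at 142 to 181 CPM with the Vps34 inhibitor in PANC-1 (0.79 ± 0.12, adjusted p = 1.77e-05), and at −0.36 ± 0.13 in AsPC-1 (difference 1.14 ± 0.18, adjusted p = 7.23e-06). MKNK2, a kinase that phosphorylates the cap-binding factor eIF4E, was higher in PANC-1 at 0.61 ± 0.08 (adjusted p = 6.32e-07). It was at 138 to 175 CPM with hydroxychloroquine and at 207 to 264 CPM with the Vps34 inhibitor in that line. In AsPC-1 MKNK2 was at −0.17 ± 0.09 (difference 0.78 ± 0.13, adjusted p = 5.95e-05). UPP1 was at −0.96 ± 0.14 in AsPC-1, with a difference of 1.39 ± 0.20 (adjusted p = 1.29e-06).

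4 named genes of replication and repair lay below 0 in PANC-1 and above it in AsPC-1, while CDC45 lay below 0 in both (−0.32 ± 0.23 in AsPC-1, difference −0.63 ± 0.33, adjusted p = 0.403). Since PCLAF, UBE2T and in part PCNA were named for their line difference, these 4 do not show a pattern of such genes. GINS2 was at 0.21 ± 0.15 in AsPC-1 (difference −0.89 ± 0.22, adjusted p = 0.0108). PCNA was at 0.49 ± 0.10 in AsPC-1 (difference −1.03 ± 0.14, adjusted p = 4.73e-07), PCLAF at 0.46 ± 0.11 (−1.06 ± 0.16, adjusted p = 2.44e-06) and UBE2T at 0.56 ± 0.11 (−0.97 ± 0.15, adjusted p = 9.75e-06). Over the 59 G1/S genes the median was −0.27 in PANC-1 and 0.22 in AsPC-1, and 7 of them passed the test of the difference, all more negative in PANC-1. AGR2 was higher in AsPC-1 at 0.65 ± 0.18 (difference −1.38 ± 0.23, adjusted p = 4.41e-05). LXN, latexin, an inhibitor of carboxypeptidases, was lower in PANC-1 (−0.39 ± 0.11, adjusted p = 0.0479, lost in 9 of the 12 refits) and at 1.15 ± 0.17 in AsPC-1 (difference −1.54 ± 0.23, adjusted p = 4.34e-06). For RNR1 both lines had lower levels, and AsPC-1 had the larger fall (−1.99 ± 0.09, difference 1.53 ± 0.13, adjusted p = 4.23e-16).

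No difference between the lines was detected for several genes of the alone comparison, which does not show that they respond alike. TXNIP was at −2.001 ± 0.28 in AsPC-1 (difference −0.72 ± 0.43, adjusted p = 0.492), KRT80 at −2.31 ± 0.24 (0.48 ± 0.37, adjusted p = 0.637), FTL at 0.53 ± 0.13 (−0.01 ± 0.18, adjusted p = 1), GLIS2 at −1.22 ± 0.16 (0.32 ± 0.22, adjusted p = 0.559) and CAV1 at −0.90 ± 0.11 (0.25 ± 0.15, adjusted p = 0.497). HMOX1 had an imprecise estimate in AsPC-1, 1.53 ± 0.86, and no size of the difference is given for it. ATF4 targets as a list had a median of −0.14 in AsPC-1, and 16 of 57 tested members were more positive in PANC-1.

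**Figure D4:**
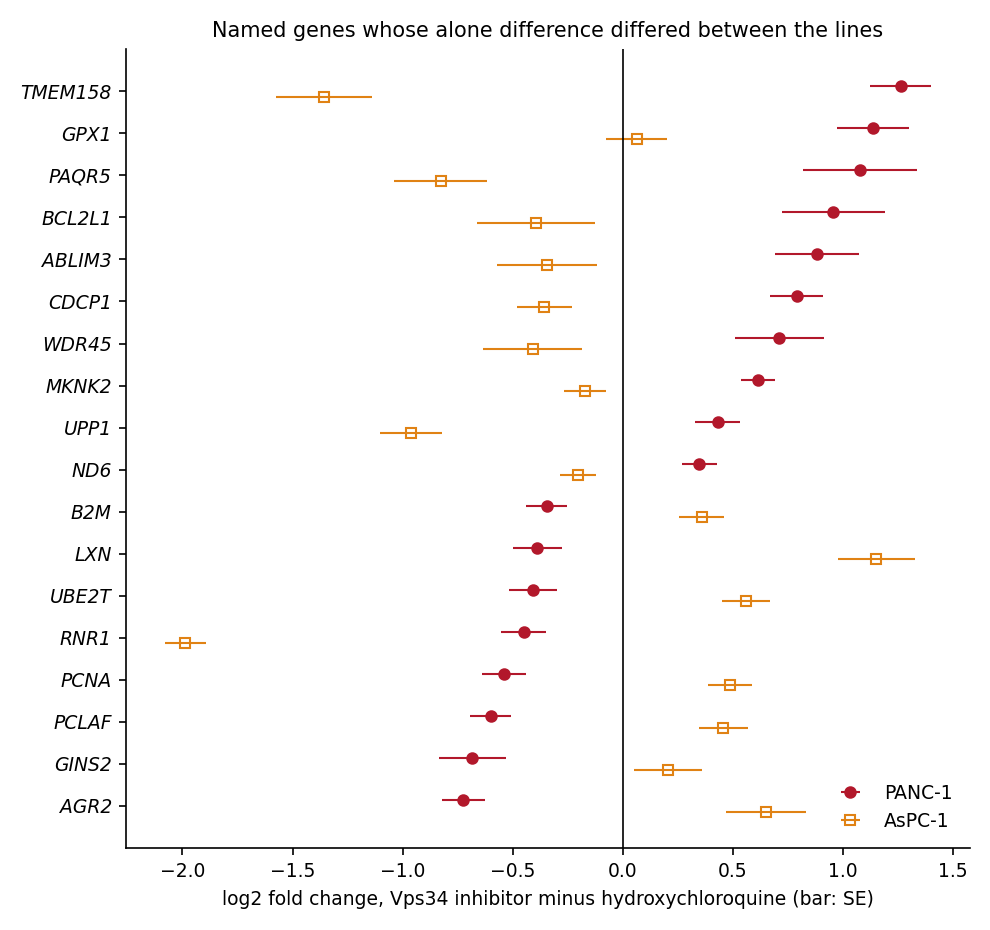
Points give the log2 fold change of the Vps34 inhibitor against hydroxychloroquine in PANC-1 (filled red circles) and AsPC-1 (open orange squares), with bars of 1 SE, for the 18 named genes whose contrast differed between the lines. Some of these genes were named for a small adjusted p in that same test. PCNA, PCLAF, UBE2T and AGR2 lie below 0 in PANC-1 and above 0 in AsPC-1, and TMEM158 lies at 1.26 and −1.36.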

How the data were processed

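Expression was measured in PLATE-Seq libraries of 2 human cell lines, 68 of each. The deposited table holds raw counts, whole numbers per gene that the authors did not normalise. Per the submitters' processing notes, kallisto 0.44.0 and GRCh38 were used; neither their roles nor the annotation is stated in the sources used here. Of 25435 genes, 4605 had no count in any library. The plate was read from the titles.

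All 68 PANC-1 libraries (30 treatment groups) were fitted by edgeR 4.0.16 with a robust quasi-likelihood fit, TMM scaling, its filterByExpr filter by group and plate as a block (37 residual degrees of freedom), and the alone contrast was taken from that fit. Tests were two-sided, with p adjusted by Benjamini and Hochberg over 12627 genes. Then 207 genes with over 25% of their summed CPM in 1 PANC-1 library were set aside, of which 29 had been called (17 higher, 12 lower), leaving 12420. Contrasts of the combinations weighted the 14 kinase inhibitors equally. The line contrast came from 1 fit of both lines (13960 genes), less genes over 25% in 1 library of either line. Log2 fold changes are given ± SE, CPM as mean ± SD over 6 libraries. Library shares were compared by exact permutation over 400 arrangements within plates, adjusted over 4.

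Libraries of opposite groups deviated from their group means with a median correlation of 0.0515 on the same plate and −0.0587 on different plates (18 pairs each), and the plate term passed for 2082 genes. Numbers of replicates follow the order of deposit and pair no samples.

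The genes, the 42 lists and the tests were chosen with earlier results of these data known, so no list is independent evidence. Named genes are, outside the ATF4 and lipid lists, up to 3 members per list with the smallest adjusted p under 0.05, the 10 largest rises and falls of at least 10 CPM that stayed called without each library, up to 5 called genes in each direction with the lowest adjusted p of the line difference, and the target complex: 56 in all, beside some genes that are not reported here. Any others were picked with their values in view and are marked so. Positions are from GENCODE v29 (GRCh38), promoters from RefSeq (GRCh38.p14). The fits were tested on simulated data. Alternatives were DESeq2 1.42.0 and the settings in the closing section. R 4.3.3, limma 3.58.1, Python 3.11.15, pandas 2.3.3, NumPy 2.4.6, SciPy 1.17.1 and matplotlib 3.10.9 were used.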

Additional observations from a re-analysis of the deposited data

Results flagged for a closer look

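In the levels of named genes and the library shares, 9 of 120 groups of 6 libraries held a library far from the other 5; chance flags about 1 in 20 groups. Of these 9, 7 lay among the hydroxychloroquine libraries: ATG14 in replicate 2 (13.6 CPM), COX5A (411 CPM), HSPA1A (48.5 CPM) and HSPA4 (5111 CPM) in replicate 3, and B2M (274 CPM), BECN1 (146 CPM) and NQO1 (203 CPM) in replicate 4. With the Vps34 inhibitor they were HSPA4 (442 CPM) in replicate 2 and HSPA1A (121 CPM) in replicate 4.

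The effect of the Vps34 inhibitor against hydroxychloroquine differed between PANC-1 and AsPC-1 by edgeR's test of the difference for 18 named genes. The difference in log2 fold change, PANC-1 minus AsPC-1, was above 0 for TMEM158 (2.62), PAQR5 (1.90), RNR1 (1.53), UPP1 (1.39), BCL2L1 (1.35), ABLIM3 (1.22), CDCP1 (1.14), WDR45 (1.12), GPX1 (1.07), MKNK2 (0.78) and ND6 (0.54). It was below 0 for LXN (−1.54), AGR2 (−1.38), PCLAF (−1.06), PCNA (−1.03), UBE2T (−0.97), GINS2 (−0.89) and B2M (−0.71). CDCP1, MKNK2, RNR1, LXN, PCLAF and UBE2T were named only for a small adjusted p in this same test, so their passing was fixed in advance. TMEM158, UPP1 and PCNA were named for it and by another rule. The remaining genes had been chosen from the same PANC-1 libraries. Line and plate cannot be told apart in the levels of any of these genes, since each line had its own plates.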

How the results depend on the processing

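Against 148 genes higher and 137 lower, RLE size factors gave 152 and 141, DESeq2 220 and 195, no filter 106 and 94, a fit without the robust option 162 and 147, setting no gene aside 165 and 149, and either other limit on 1 library's share 144 and 134. Without the plate block the counts were 112 and 90, with the 12 alone libraries only 79 and 61, on plate A 13 and 6, and on plate B 10 and 5. Leaving out 1 library gave 102 to 151 higher and 87 to 138 lower; Vps34 inhibitor replicates 3 and 4, when left out, gave 87 and 89 lower. Fewer libraries enter the single-plate and leave-one-out fits, and the cause of the other changes was not tested. Under kinase inhibitors 2623 genes became 2624 with RLE, 2369 without the block and 2550 with additive terms. The test of alone against combined called 0 genes in each of 3 settings, and the line difference went from 315 to 332 with RLE and 218 without the block. The mitochondrial share differed by 0.443 percentage points, or 0.46 without ribosomal RNA.

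All 51 called genes named by rule kept their sign in every setting. Calls were lost by 13 without the plate block, 18 with the alone libraries only, 8 without a filter, 49 on plate A and 45 on plate B. The call was kept without each library by 35. These include the 10 largest rises and 10 largest falls, which were named only if they kept it, so the number overstates stability. Over all called genes, 62 of 148 higher and 57 of 137 lower ones kept it. Among genes named by rule, signs turned for 3 with no call: PIK3C3 was at 0.011 on plate B and at −0.14 to 0.087 over the leave-one-out fits, ATG14 at −0.024 to 0.45 and BECN1 at −1.89 to 0.23. ATG14 turned without Vps34 inhibitor replicate 6, BECN1 without hydroxychloroquine replicate 4. Of the called genes that rest on 1 library, PIGT turned to 0.15 without hydroxychloroquine replicate 3 and ZBTB8A to 0.21 without replicate 5, and ASB8 turned on plate A. Replicate numbers follow the order of deposit, so no pairing beyond the plate was possible. At 2392004 to 4977643 counts a library, genes near 1 CPM rest on a few counts each.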

Other observations

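Some further genes were named after their values were seen. Among those lower with the Vps34 inhibitor were 4 that bind, splice or export messenger RNA. PTBP1, a repressor of exon inclusion, fell from 488 ± 29.7 to 385 ± 20.03 CPM (SD, n = 6 each, log2 fold change −0.34 ± 0.07, adjusted p = 0.00417 by edgeR). SRSF7, an SR splicing factor, stood at 172 to 218 CPM with hydroxychloroquine and at 125 to 169 CPM with the Vps34 inhibitor, with no overlap (−0.44 ± 0.08, adjusted p = 9.42e-04). HNRNPA2B1 differed by −0.41 ± 0.10 (adjusted p = 0.0116) and the export helicase DDX39A by −0.59 ± 0.14 (adjusted p = 0.0103). The same contrast under kinase inhibitors gave −0.27 ± 0.03, −0.35 ± 0.04, −0.31 ± 0.04 and −0.38 ± 0.06 for these 4 genes, each of them called. No list of such proteins was counted, and these 4 do not stand for the class.

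Among the remaining higher genes, NKX6-2, a homeobox factor, was at 97.2, 99.3, 109, 116, 125 and 136.2 CPM with hydroxychloroquine and at 181, 182, 189.9, 195, 207 and 209 CPM with the Vps34 inhibitor (0.78 ± 0.12, adjusted p = 1.46e-05). The groups were apart. SHC1, the adaptor that links receptor tyrosine kinases to RAS, went from 72.1 ± 13.2 to 118 ± 10.3 CPM (0.71 ± 0.13, adjusted p = 3.67e-04), and BAG1, a cochaperone of HSP70, from 18.0 ± 4.45 to 32.2 ± 8.83 CPM (0.84 ± 0.18, adjusted p = 0.00332). ANPEP, the surface aminopeptidase CD13, went from 17.5 ± 3.08 to 30.7 ± 4.02 CPM (0.82 ± 0.15, adjusted p = 7.14e-04) and was at 0.82 ± 0.19 in AsPC-1. PLAC8, a gene known from pancreatic cancer, was lower with the Vps34 inhibitor (−0.56 ± 0.12, adjusted p = 0.00408). It was at 38.0 to 47.7 CPM there and at 45.3 to 69.6 CPM with hydroxychloroquine. In AsPC-1 the log2 fold change was −0.51 ± 0.09.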
